A study of Mus musculus with 24 samples.

Results

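A set of 10 mouse genes for zinc buffering and zinc transport was followed through kidney RNA-seq libraries of mice with and without polycystic kidney disease. The set holds the metallothioneins Mt1 and Mt2, the zinc sensor Mtf1, the Slc30 exporters Slc30a1, Slc30a2 and Slc30a10, and the zinc importers Slc39a4, Slc39a8, Slc39a10 and Slc39a14. Each gene symbol gave 1 row of a table of 54532 genes. The set was chosen by the read counts of Mt1 and Slc30a1, which were lower in RC/- D53 than in RC/- D18 kidneys. That contrast is therefore described without a test for every gene of the set. For Mt1 and Slc30a1, any other comparison that uses the RC/- D18 or RC/- D53 libraries is also given as values only, so that 8 genes are left for counts in those comparisons.

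The RNA came from whole kidneys of 24 mice on a C57BL/6 J background, each killed at 18 days of age and giving 1 library. On one chromosome every mouse had the missense RC form of Pkd1, from which less mature polycystin-1 is made, and on the other a floxed Pkd1 allele. In RC/+ mice the floxed allele was left intact. In RC/- mice it was inactivated by Ksp-Cre, which acts in tubule cells, and these kidneys are cystic. The D18 mice (founder 3) and the D53 mice (founder 2) had lost the miR-17 binding motif from the 3′ UTR of the RC allele. Each edited line thus goes back to 1 edited founder. There were 3 mice in each of the groups RC/+, RC/+ D18 and RC/+ D53, and 5 in each of RC/-, RC/- D18 and RC/- D53. Cre was present in the RC/- mice of every line and absent from RC/+ mice, so the effect of Cre and that of the cystic genotype cannot be told apart. No founder is named in the labels of the RC/+ and RC/- mice.

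Metallothioneins are small cysteine-rich proteins that bind zinc and copper in the cytosol. When free zinc rises, Mtf1 binds metal response elements and switches on the metallothionein genes and Slc30a1, which pumps zinc out of the cell. Glucocorticoids also induce Mt1 and Mt2. Transporters of the Slc30 family lower cytosolic zinc by moving it out of the cell or into vesicles, and those of the Slc39 family raise it. In the kidney, filtered metals are taken back up by the proximal tubule.

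The promoters of Mt1, Mt2 and Slc30a1 are shown because these are the textbook targets of Mtf1 in the set. Each runs from 250 bases before to 50 bases after the start site in RefSeq (GRCm38.p6). Capitals mark matches to the core of the metal response element, spelled TGCGCNC or TGCACNC and searched on both strands.
Mt1: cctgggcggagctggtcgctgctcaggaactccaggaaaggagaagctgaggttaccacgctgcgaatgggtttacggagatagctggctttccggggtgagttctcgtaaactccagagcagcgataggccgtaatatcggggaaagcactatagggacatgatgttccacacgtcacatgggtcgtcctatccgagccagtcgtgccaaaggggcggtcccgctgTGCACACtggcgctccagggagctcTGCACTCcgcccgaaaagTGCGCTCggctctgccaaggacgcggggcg
Mt2: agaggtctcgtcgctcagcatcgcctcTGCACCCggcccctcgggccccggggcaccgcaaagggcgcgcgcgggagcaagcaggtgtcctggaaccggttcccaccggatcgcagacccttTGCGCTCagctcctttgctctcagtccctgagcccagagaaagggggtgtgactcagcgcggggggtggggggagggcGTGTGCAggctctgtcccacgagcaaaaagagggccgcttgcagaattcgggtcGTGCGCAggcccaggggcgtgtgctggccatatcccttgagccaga
Slc30a1: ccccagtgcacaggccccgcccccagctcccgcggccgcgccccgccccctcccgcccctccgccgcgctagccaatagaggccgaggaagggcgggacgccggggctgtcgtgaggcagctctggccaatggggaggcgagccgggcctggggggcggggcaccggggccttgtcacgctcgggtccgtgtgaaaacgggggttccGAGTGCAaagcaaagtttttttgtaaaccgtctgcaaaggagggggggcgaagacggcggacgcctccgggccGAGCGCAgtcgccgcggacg
The Mt1 window lies on the plus strand of chromosome 8 at chr8:94178839-94179138, the Mt2 window at chr8:94172368-94172667 on the same strand, and the Slc30a1 window at chr1:191906531-191906830, also on the plus strand. The Mt1 window held 3 matches, and at least as many were found in 1.97% of the 32851 RefSeq promoters of this length. The first bases of the Mt1 matches were at -23, 3 and 21 from the start site used, so matches on both sides of it are counted. The Mt2 window held 4 matches, which 0.517% of promoters reached. The Slc30a1 window held 2 matches, and 7.11% of promoters held at least 2. At least 1 match was present in 25.7% of promoters.

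Promoters were matched for 8 of the 10 genes. Slc30a10 held 3 matches, of which a pair overlapped, and Slc30a2 held 2. Of the 2 windows of Slc39a8 one held 1 match, and Mtf1 and both windows of Slc39a10 held 0. Slc39a4 and Slc39a14 were not matched to a promoter. A match describes letters only and does not show binding.

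Mt1 and Mt2 are neighbours. On GRCm38, Mt2 spans chr8:94172664-94173568 and Mt1 spans chr8:94179082-94180327, both on the plus strand, with 5514 bases between them. An antisense gene, Gm45774, covers 73.5% of the exon bases of Mt2 and leaves 156 bases that belong to Mt2 alone. STAR leaves out reads that fall on more than 1 gene unless strand is used, and the strand setting is not given in the sources used here. Mt2 was counted at 11 to 131 reads per library while Mt1 was counted at 1704 to 8171. The Mt2 values therefore come from few reads and may cover only part of the transcript. Smaller parts of Mtf1 (8.09%), Slc30a1 (8.92%) and Slc30a10 (9.13%) are shared with antisense genes in the same way. A stretch of Slc39a10 has a near copy in Gm6801, with 94.54% identity over 348 bases, so reads there are uncertain.

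The libraries held between 20.38 and 30.84 M counted reads. All 10 genes passed the filter on low values. The values below are reads scaled to a common library total (CPM), and fold changes are on the log2 CPM scale with a prior count of 2. Markers of other tissues set some libraries apart. Summed skeletal muscle markers (8 genes) were at 166 to 218 CPM in libraries 20 to 27, which are 3 of the RC/- D18 and all 5 RC/- D53 libraries, and at 9.05 to 14.2 CPM in the other 16. Summed adrenal cortex markers (7 genes) reached 2036 CPM in RC/- replicate 16 and at most 18.2 CPM elsewhere. Summed markers of brown and white fat varied from 2.92 to 408 CPM within groups.

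Per kilobase of exon, Mt1 had the highest level of the set, with a mean of 101 CPM per kb over all 24 libraries. Slc30a1 followed at 13.03 CPM per kb, Slc39a8 at 10.9, Slc30a2 at 9.30 and Slc39a10 at 7.80. Mt2 (2.82), Slc39a14 (2.54) and Mtf1 (2.23) were lower on this per-length scale. The lengths are all annotated exon bases. For Mt1 these 1246 bases fill its whole gene span, and for Mt2 they include the 73.5% shared with Gm45774. The place of Mt2 in this order is therefore uncertain. Slc39a4, an importer best known for intestinal zinc uptake, was at 0.566 CPM per kb. Slc30a10, which is known mainly for exporting manganese, was at 0.0947 CPM per kb, with 5 to 23 reads per library. The values of Slc30a10, Slc39a4 and Mt2 rest on the fewest reads.

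**Figure D1:**
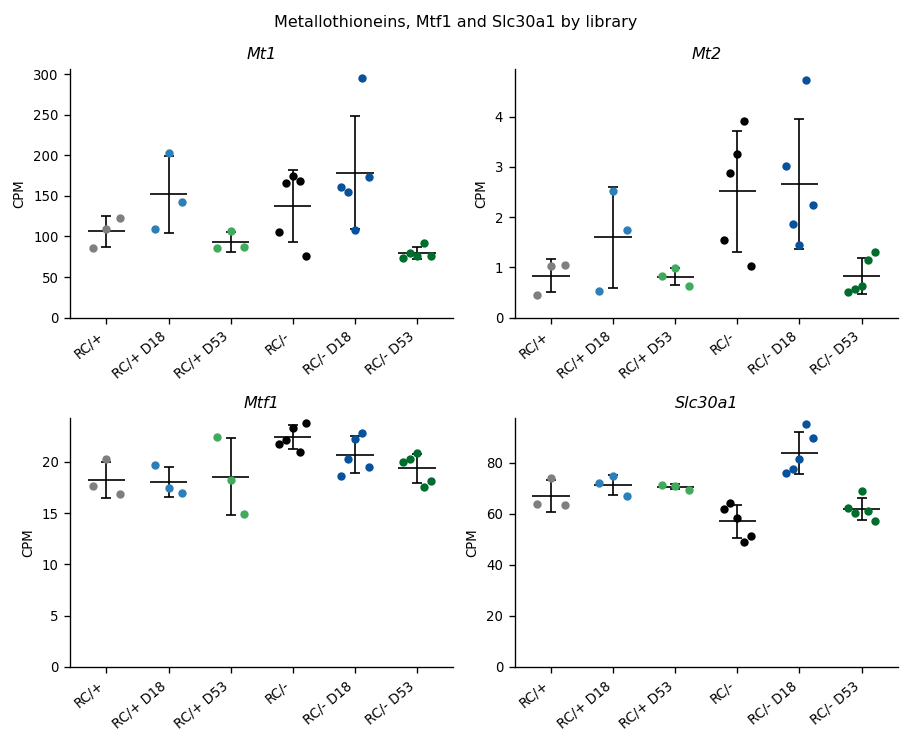
CPM (vertical axis, from 0) of Mt1, Mt2, Mtf1 and Slc30a1 in each library by group. Points are libraries, horizontal lines are group means and bars are SD (n = 3 in RC/+ groups and 5 in RC/- groups). All 5 RC/- D53 libraries lie at or below 92.1 CPM for Mt1 and all 5 RC/- D18 libraries at or above 108 CPM.

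Mt1 was at 86.1, 109.8 and 123 CPM in RC/+ kidneys and at 106, 165, 174, 168 and 75.4 CPM in RC/- kidneys. The RC/- values reached both lower and higher than the RC/+ values. In RC/- D18 kidneys Mt1 was at 161, 155, 108, 295 and 174 CPM, and in RC/- D53 kidneys at 73.1, 79.4, 76.2, 92.1 and 76.0 CPM. These groups did not overlap, which is the difference the set was chosen for, and 2.74% of the 22570 genes tested had groups that did not overlap in the same contrast. The log2 fold change of RC/- D53 against RC/- D18 was -1.09 ± 0.224 (SE), or 2.14-fold. Among libraries 20 to 27 alone, the 3 RC/- D18 values were 108 to 295 CPM and the 5 RC/- D53 values 73.1 to 92.1 CPM, a log2 difference of -1.16.

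The same contrast in the control mice used libraries that played no part in the choice of genes. Mt1 was at 109, 203 and 143 CPM in RC/+ D18 and at 85.4, 107 and 87.5 CPM in RC/+ D53. Each RC/+ D53 library was below each RC/+ D18 library, and 13.1% of genes had groups that did not overlap here. The log2 fold change was -0.66 ± 0.289 (SE), which did not pass the test (limma adjusted p = 0.684, unadjusted p = 0.031). In this contrast 0 genes of the set were called by limma, edgeR and DESeq2, 1 of 10 had an unadjusted p below 0.05, and 0.00443% of all genes were called.

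The order of the group means of Mt1 was RC/- D18 (179 ± 70.0 CPM, SD), RC/+ D18 (152 ± 47.8), RC/- (138 ± 44.4), RC/+ (106 ± 18.8), RC/+ D53 (93.3 ± 11.9) and RC/- D53 (79.4 ± 7.46). Every pair of neighbours in this order overlapped. Against RC/+, Mt1 in RC/- had a log2 fold change of 0.32 ± 0.258 (SE), which did not pass the test (limma adjusted p = 0.365). The spread within RC/- and RC/- D18 was wide, and the values of RC/- D53 stood close together. As values only, Mt1 differed from RC/- by 0.37 log2 units in RC/- D18 and by -0.73 in RC/- D53, and from the RC/+ mice of the same line by 0.20 in the D18 line and -0.23 in the D53 line.

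Over the 24 libraries, the genes outside the set with the highest Pearson r to Mt1 on the log2 CPM scale were Gm28438 (0.817), Methig1 (0.765), Gm12454 (0.745), Pnmal1 (0.691) and Mettl7a2 (0.688). After group means were subtracted these r were 0.588, 0.620, 0.626, 0.532 and 0.471. The libraries share their depth scaling and tissue content, and the r are descriptions. Gm28438, an unprocessed pseudogene at chr1:24612775-24613119 in GENCODE, was at 165 to 356 reads in 12 libraries and at 28 to 70 reads in the other 12. High counts were found in the 8 D18 libraries and in replicates 13 to 16 of RC/-. Low counts were found in RC/- replicate 17 and in each library of RC/+ and of the D53 line.

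Gm28438 was picked for its high r to Mt1 in these libraries, so the values that follow are a description and no support for a link. Mt1 was at 106 to 295 CPM in the 12 libraries with high Gm28438, with a median of 163, and at 73.1 to 123 CPM in the other 12, with a median of 85.8. Within RC/-, the 4 libraries with high Gm28438 had 106 to 174 CPM of Mt1 and the 1 library with low Gm28438 had 75.4 CPM. The Gm28438 sets coincide with the D18 and D53 lines, so the 2 cannot be told apart in comparisons between those lines. With the set as a covariate, which only the RC/- libraries can estimate, the log2 difference of Mt1 between RC/- D53 and RC/- D18 went from -1.09 to -0.10, and that of Slc30a1 from -0.44 to -0.26. This covariate was added after the data were seen. It rests on a single low library, RC/- replicate 17. The part of the Gm28438 split in the Mt1 difference was not tested. Whether RC/- replicates 13 to 16 and replicate 17 descend from the same founder is not given in the labels, and with the set as a covariate the log2 value of Mt1 in RC/- against RC/+ went from 0.32 to -0.48 (limma adjusted p = 0.366).

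**Figure D2:**
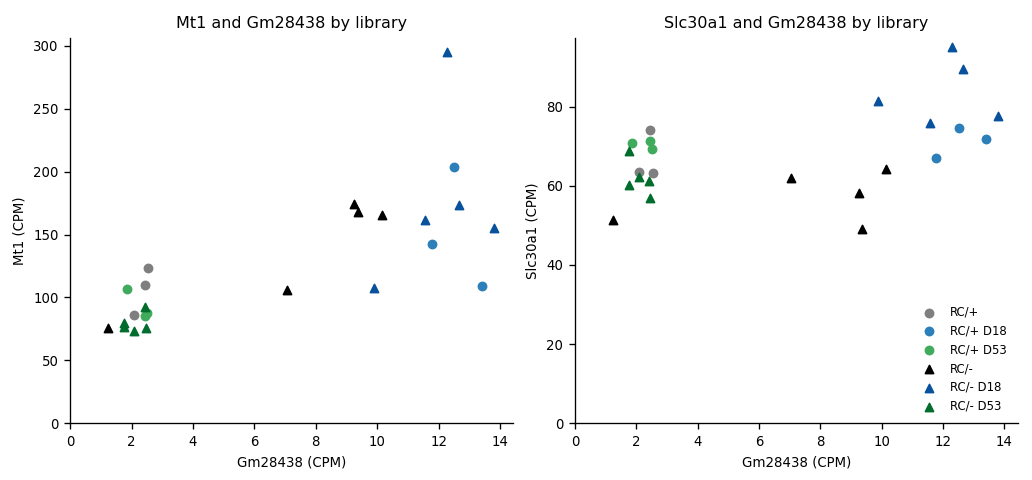
Mt1 (left) and Slc30a1 (right) in CPM against Gm28438 in CPM, 1 point per library, coloured by group, with circles for RC/+ groups and triangles for RC/- groups. Libraries with high Gm28438 hold 106 to 295 CPM of Mt1 and those with low Gm28438 73.1 to 123 CPM, while Slc30a1 spans 49.1 to 95.2 CPM in the high set and 51.4 to 74.1 CPM in the low set.

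Mt2 showed the pattern of Mt1 at few reads, with r = 0.870 to Mt1 over the 24 libraries and 0.863 after group means were subtracted. It was at 0.449, 1.02 and 1.04 CPM in RC/+ and at 1.54, 2.87, 3.26, 3.904 and 1.02 CPM in RC/-. The lowest RC/- library, replicate 17, lay between the RC/+ values. Mt2 rose in RC/- against RC/+ by 1.43 ± 0.465 log2 units (SE, limma adjusted p = 0.0172). Without RC/+ replicate 4 it no longer passed (log2 1.07, limma adjusted p = 0.122), nor with the Gm28438 set as a covariate (log2 0.34, limma adjusted p = 0.774).

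Mt2 in RC/- D18 kidneys was at 3.02, 1.87, 1.45, 4.74 and 2.24 CPM, and in RC/- D53 kidneys at 0.519, 0.570, 0.623, 1.14 and 1.30 CPM. The latter lay on both sides of the noncystic D53 mice, which had 0.826, 0.987 and 0.638 CPM. Mt2 fell in RC/- D53 against RC/- by 1.45 log2 units (SE 0.402, limma adjusted p = 0.00769) and did not pass in RC/- D18 against RC/- (log2 0.11, limma adjusted p = 0.850). The RC/- D53 call was lost with libraries 20 to 27 as a covariate (log2 -1.52, limma adjusted p = 0.219) and with the Gm28438 set (log2 -0.36, limma adjusted p = 0.775). All 5 RC/- D53 libraries and no unedited RC/- library are among libraries 20 to 27, so only RC/- D18 libraries can estimate that covariate. Between RC/- D53 and RC/- D18 the log2 difference of Mt2 was -1.56, and the groups did not overlap.

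Slc30a1, the exporter that Mtf1 induces, was at 63.6, 74.1 and 63.3 CPM in RC/+ and at 61.9, 64.3, 58.1, 49.1 and 51.4 CPM in RC/-. Most RC/- libraries lay under the lowest RC/+ library. Slc30a1 fell in RC/- against RC/+ by 0.24 log2 units (SE 0.0898, limma adjusted p = 0.0395). This small difference did not pass without RC/- replicate 16, the library with adrenal markers (log2 -0.19, limma adjusted p = 0.107), without RC/- replicate 17 (limma adjusted p = 0.0942) or without RC/+ replicate 5 (limma adjusted p = 0.238). It also missed the threshold when these groups alone were fitted (limma adjusted p = 0.0979), without the filter on low values (limma adjusted p = 0.0592) and with the Gm28438 set as a covariate (limma adjusted p = 0.0511).

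Slc30a1 in RC/- D18 kidneys was at 75.9, 77.5, 81.5, 95.2 and 89.6 CPM, and in RC/- D53 kidneys at 62.2, 60.3, 68.9, 61.1 and 57.0 CPM. The groups did not overlap, with a log2 difference of -0.44 ± 0.0778 (SE). Among libraries 20 to 27 it was -0.52, with 81.5 to 95.2 against 57.0 to 68.9 CPM. Without RC/- D18 replicates 20 to 22 it was -0.31. In the control mice of the edited lines Slc30a1 was at 71.9, 74.6 and 67.1 CPM in RC/+ D18 and 71.3, 71.0 and 69.4 CPM in RC/+ D53 (log2 -0.01 ± 0.100, limma adjusted p = 0.992).

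The order of the group means of Slc30a1 was RC/- D18 (83.9 ± 8.23 CPM, SD), RC/+ D18 (71.2 ± 3.81), RC/+ D53 (70.5 ± 1.01), RC/+ (67.0 ± 6.18), RC/- D53 (61.9 ± 4.36) and RC/- (57.0 ± 6.57). Among neighbours in this order, RC/- D18 and RC/+ D18 did not overlap and the others did. Against RC/-, Slc30a1 was 0.56 log2 units higher in RC/- D18 (0.44 without libraries 20 to 22) and 0.13 higher in RC/- D53 (-0.08 with libraries 20 to 27 as a covariate). Within the D18 line the cystic genotype went with a log2 difference of 0.23 (0.11 without libraries 20 to 22) and within the D53 line with one of -0.19. These differences use libraries by which Slc30a1 was chosen and are values only. The genes outside the set most like Slc30a1 over the 24 libraries were Vwa8 (r = 0.838), Fnip2 (0.827), Osbpl8 (0.827), Car5b (0.827) and Pex5 (0.818). With group means subtracted, their r were 0.629, 0.585, 0.641, 0.772 and 0.656, pooled over all groups. An r within 1 group was not computed. The r of Slc30a1 to Mt1 was 0.460, and 0.349 after group means were subtracted. Both genes were chosen by the same contrast among these libraries, so this r is a description and no support for a link.

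Mtf1, the transcription factor that reads zinc, was at 17.7, 20.3 and 16.9 CPM in RC/+ and at 21.8, 22.1, 23.4, 20.9 and 23.8 CPM in RC/-. All RC/- values were the higher ones. Mtf1 rose by 0.30 ± 0.107 log2 units (SE, limma adjusted p = 0.0312). The call was lost with TMM scaling (log2 0.16, limma adjusted p = 0.311) and in edgeR (adjusted p = 0.328) and DESeq2 (adjusted p = 0.309). It was also lost on leaving out RC/+ replicate 4 or 6 or RC/- replicate 15 or 17, with log2 values of 0.24 to 0.28. Mtf1 did not pass in RC/- D18 (log2 -0.12, limma adjusted p = 0.335) or RC/- D53 (log2 -0.21, limma adjusted p = 0.0885) against RC/-. Over all genes tested, the median of RC/- against RC/+ was at 0.141 log2 units and moved to 0.0118 with TMM scaling.

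**Figure D3:**
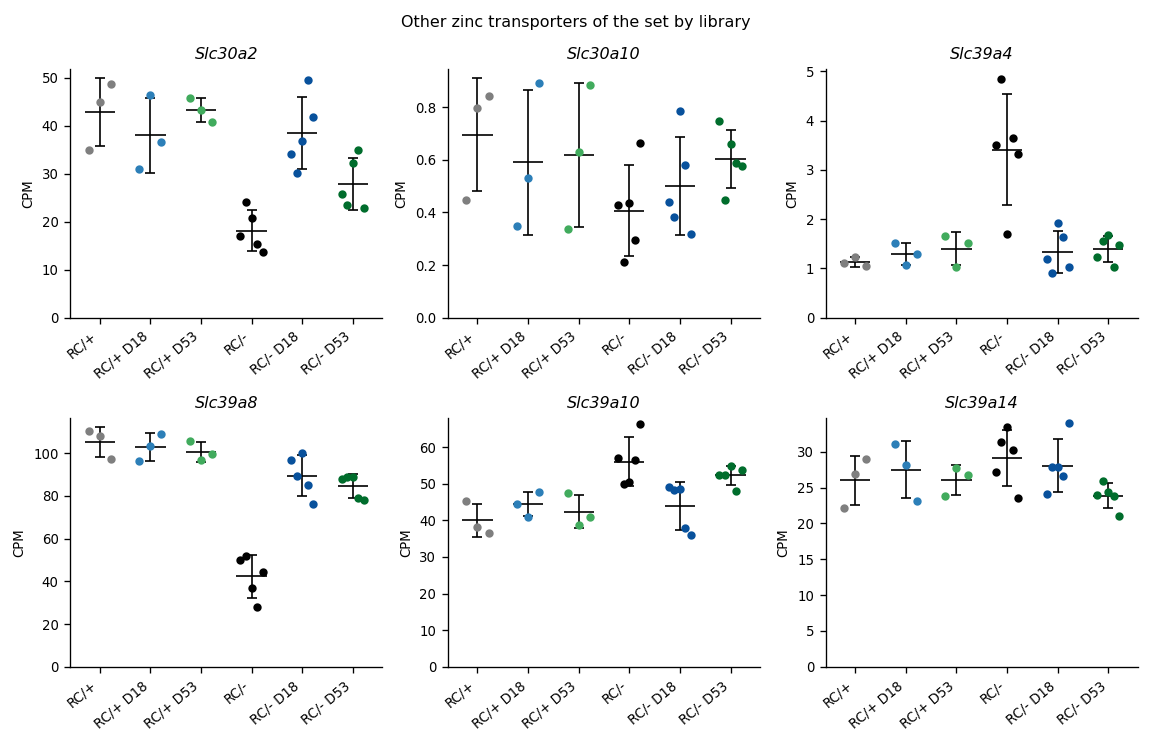
CPM (vertical axes, from 0) of Slc30a2, Slc30a10, Slc39a4, Slc39a8, Slc39a10 and Slc39a14 in each library by group, with group means and SD bars (n = 3 in RC/+ groups and 5 in RC/- groups). RC/- stands below the other groups for Slc39a8 and Slc30a2 (for Slc30a2, its highest library at 24.03 CPM lies within the RC/- D53 values) and above most of them for Slc39a4.

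Across the set, 7 of 10 genes were called in RC/- against RC/+, 4 higher and 3 lower, where 37.6% of the 22570 genes tested were called (25.5% higher and 12.2% lower). With TMM scaling 3842 of 22572 genes were called higher and 3895 lower, so this split over all genes depended on the scaling. The groups did not overlap for 5 of 10 genes, against 37.6% of all genes. The median log2 fold change of the set was 0.229, and that of all genes 0.141. The 4 calls that passed under every alternative tried were the importers Slc39a4, Slc39a8 and Slc39a10 and the exporter Slc30a2. They moved in both directions.

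Slc39a8, an importer of zinc and manganese, had the lowest adjusted p of the set. It was at 111, 108 and 97.5 CPM in RC/+ and at 50.2, 52.0, 36.7, 28.2 and 44.5 CPM in RC/-. The groups were far apart and did not overlap. Slc39a8 fell by 1.35 log2 units (SE 0.133, limma adjusted p = 2.5e-08), or 2.54-fold. Without RC/- replicate 16, its lowest library, the log2 value was -1.21. It was at 96.8, 89.4, 100.1, 85.0 and 76.4 CPM in RC/- D18 and at 88.0, 89.0, 88.7, 79.2 and 77.9 CPM in RC/- D53. Both edited groups lay above every RC/- library. Slc39a8 rose against RC/- by 1.11 ± 0.115 log2 units in RC/- D18 (SE, limma adjusted p = 4.85e-08) and by 1.03 ± 0.115 in RC/- D53 (SE, limma adjusted p = 4.18e-07).

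Slc30a2, which loads zinc into vesicles, moved the same way. It was at 34.9, 45.0 and 48.8 CPM in RC/+ and at 17.02, 24.03, 20.7, 15.3 and 13.7 CPM in RC/-. All RC/- values were the lower ones, and Slc30a2 fell by 1.25 log2 units (SE 0.180, limma adjusted p = 5.76e-06). Among RC/- D18 kidneys it was at 34.2, 30.2, 36.9, 49.6 and 41.8 CPM, above every RC/- library, and rose against RC/- by 1.09 ± 0.156 log2 units (SE, limma adjusted p = 4.53e-06). In RC/- D53 it was at 25.8, 23.5, 32.3, 34.998 and 22.9 CPM, overlapping the highest RC/- library, and rose by 0.63 ± 0.156 (SE, limma adjusted p = 0.00333). With libraries 20 to 27 as a covariate the RC/- D53 call was lost (log2 0.23, limma adjusted p = 0.674).

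Like Slc39a8 and Slc30a2, markers of the proximal tubule were lower in RC/-. All 9 of 9 proximal tubule markers were lower in RC/- than in RC/+. Their sum was 1613 to 4038 CPM in RC/-, 7696 to 8266 in RC/+, 8255 to 10220 in RC/+ D18, 7591 to 8324 in RC/+ D53, 6914 to 9856 in RC/- D18 and 5517 to 7115 in RC/- D53. In whole kidney RNA, fewer cells of a type and less RNA per cell cannot be told apart. Set against the summed markers, Slc39a8 was at 13.3 ± 0.688 per 1000 marker CPM in RC/+ (SD, n = 3) and at 15.1 ± 3.70 in RC/- (SD, n = 5), with ranges of 12.7 to 14.01 and 11.05 to 20.3. Slc30a2 was at 5.40 ± 0.960 in RC/+ (SD, n = 3) and at 6.53 ± 1.76 in RC/- (SD, n = 5). Relative to these markers neither gene had a lower mean in RC/-, and the part of tubule content was not tested. Within RC/- D18, replicates 21 and 22 had the most marker CPM (9172 and 9856). These held the least Slc39a8 (85.0 and 76.4 CPM) and the most Slc30a2 (49.6 and 41.8 CPM) of that group. A lower marker sum in RC/- was not particular to the proximal tubule. Summed thick ascending limb markers were at 1844 to 3348 CPM in RC/- and at 4076 to 4631 in RC/+, with 2 of 4 called lower and 1 higher. They were at 4079 to 4515 CPM in RC/- D18 and at 2710 to 5109 in RC/- D53. Principal cell markers (6 of 6) and macrophage markers (7 of 7) were higher in RC/- than in RC/+, with sums of 2499 to 4845 against 1097 to 1362 CPM and of 433 to 764 against 219 to 241 CPM.

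**Figure D4:**
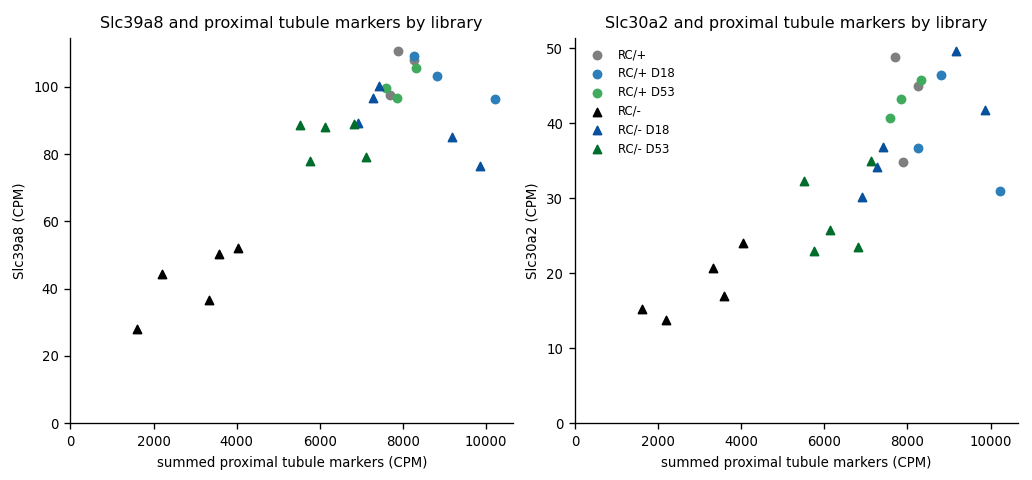
Slc39a8 (left) and Slc30a2 (right) in CPM against the summed CPM of 9 proximal tubule markers, 1 point per library, coloured by group, with circles for RC/+ groups and triangles for RC/- groups. The 5 RC/- libraries lie at the lower left, with 1613 to 4038 CPM of markers and 28.2 to 52.0 CPM of Slc39a8.

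Slc39a4 and Slc39a10, both importers at the cell surface, moved the other way. Slc39a4 was at 1.10, 1.24 and 1.04 CPM in RC/+ and at 3.51, 4.86, 1.71, 3.65 and 3.32 CPM in RC/-. Even the lowest RC/- library was above RC/+, and Slc39a4 rose by 1.46 ± 0.278 log2 units (SE, limma adjusted p = 0.000182), or 2.75-fold, from 26 to 28 reads per library in RC/+ to 43 to 115 in RC/-. It was at 1.18, 0.910, 1.92, 1.63 and 1.03 CPM in RC/- D18 and in RC/- D53 at 1.23, 1.55, 1.69, 1.04 and 1.48 CPM. It fell against RC/- by 1.28 log2 units in RC/- D18 (SE 0.241, limma adjusted p = 0.000135) and by 1.19 in RC/- D53 (SE 0.241, limma adjusted p = 0.000511), a call that was lost with the Gm28438 set as a covariate (log2 -1.22, limma adjusted p = 0.0520).

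Slc39a10 was at 45.2, 38.2 and 36.5 CPM in RC/+ and at 57.0, 50.0, 50.4, 56.5 and 66.4 CPM in RC/-. Every RC/- library was above every RC/+ library, and Slc39a10 rose by 0.49 ± 0.110 log2 units (SE, limma adjusted p = 0.00106). Slc39a10 in RC/- D18 was at 49.1, 48.2, 48.5, 37.8 and 35.9 CPM and fell against RC/- by 0.36 log2 units (SE 0.0952, limma adjusted p = 0.00385). The 2 lowest of these libraries, replicates 21 and 22, belong to those with muscle markers, and without replicates 20 to 22 the call was lost (log2 -0.20, limma adjusted p = 0.191). In RC/- D53 it was at 52.4, 52.5, 54.7, 48.0 and 53.7 CPM, within the RC/- range or just under it, and did not pass (log2 -0.09, limma adjusted p = 0.506). The 5 RC/- D18 and 5 RC/- D53 values overlapped, and their difference was not tested. The r of Slc39a10 to Mt1 was -0.417, and -0.739 after group means were subtracted. For Slc30a2 these r were 0.23 and 0.684.

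Slc39a14, an importer of zinc, iron and manganese, and Slc30a10 did not pass in RC/- against RC/+. Slc39a14 had group means of 26.002 ± 3.44 CPM in RC/+ (SD, n = 3) and 29.1 ± 3.85 in RC/- (SD, n = 5), with a log2 fold change of 0.16 ± 0.121 (SE, limma adjusted p = 0.316). It fell in RC/- D53 against RC/- by 0.28 log2 units (SE 0.104, limma adjusted p = 0.0439), from 23.6 to 33.4 CPM down to 21.04 to 25.9 CPM. This call was lost under TMM scaling (limma adjusted p = 0.250), in edgeR and DESeq2, and on leaving out any of 3 RC/- (replicates 14, 15 and 16) or 4 RC/- D53 libraries (replicates 23, 25, 26 and 27). Slc30a10 had 5 to 15 reads per library in RC/- and 11 to 21 in RC/+, with a log2 fold change of -0.70 ± 0.347 (SE, limma adjusted p = 0.117).

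**Figure D5:**
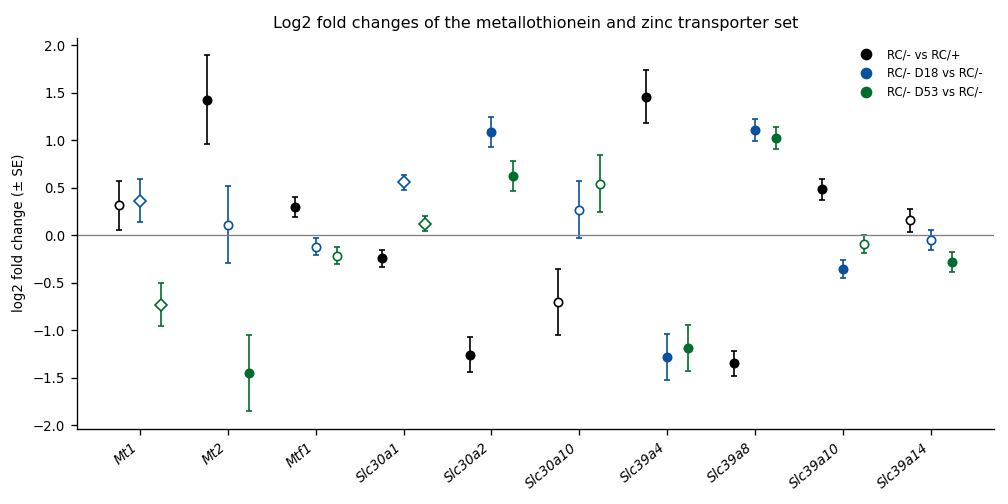
Log2 fold change with SE bars (vertical axis) of each gene of the set in RC/- against RC/+ (black), RC/- D18 against RC/- (blue) and RC/- D53 against RC/- (green). Filled circles passed an adjusted p of 0.05, open circles did not, and open diamonds (Mt1 and Slc30a1 in the edited lines) were not tested. Slc30a2 and Slc39a8 lie below 0 in black and above 0 in blue and green, and Slc39a4 the reverse.

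Of the 8 genes tested, 4 were called in RC/- D18 against RC/-, 2 higher and 2 lower, where 41.2% of all genes were called (14.3% higher and 26.9% lower). The groups did not overlap for 3 of the 8, and for 27.8% of all genes. In RC/- D53 against RC/- 5 of 8 were called, 2 higher and 3 lower, where 30.2% of all genes were called (11.3% higher and 18.9% lower). Here too 3 of the 8 had groups that did not overlap, as had 18.8% of all genes. With TMM scaling, 4442 of all genes were called higher and 4398 lower in RC/- D18, and 3378 higher and 2962 lower in RC/- D53. Without libraries 20 to 22 there were 3 calls in RC/- D18. Taking libraries 20 to 27 as a covariate left 2 calls in RC/- D53, Slc39a4 and Slc39a8. That covariate is estimated within RC/- D18 alone, so a call lost under it need not mean a smaller difference. Mt2 lost its call while its log2 value went from -1.45 to -1.52, and Slc30a2 while it went from 0.63 to 0.23. The comparisons of edited mice with RC/- and that of RC/- with RC/+ share the RC/- libraries, so they are not independent of each other.

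Within the edited lines, 0 of 8 genes were called in RC/- D18 against RC/+ D18, where 0.266% of all genes were called by limma, and edgeR and DESeq2 also called 0. None of the 8 had an unadjusted p below 0.05, and the lowest adjusted p by limma was 0.634. The groups overlapped for each of the 8, and did not for 5.76% of all genes. In RC/- D53 against RC/+ D53, 0 of 8 were called by limma and by edgeR and 1 by DESeq2, where limma called 2.60% of all genes. There 2 of 8 had an unadjusted p below 0.05, as had 3013 of the 22570 genes tested. These were Slc30a2, at 40.8 to 45.8 CPM in RC/+ D53 and 22.9 to 34.998 CPM in RC/- D53 (log2 -0.65 ± 0.180, limma adjusted p = 0.0528), and Slc39a10 (log2 0.31 ± 0.110, limma adjusted p = 0.174). The groups did not overlap for 3 of 8 genes, which were Slc30a2, Slc39a8 and Slc39a10, and for 11.6% of all genes.

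The difference between RC/- and RC/+ mice was compared between each edited line and the unedited mice by an interaction term. In the D18 line 4 of 8 genes differed, where 17.1% of all genes did. They were Slc39a8 (log2 1.14 ± 0.188, limma adjusted p = 0.000177), Slc30a2 (log2 1.27 ± 0.255, limma adjusted p = 0.00117), Slc39a4 (log2 -1.45 ± 0.393, limma adjusted p = 0.0120) and Slc39a10 (log2 -0.51 ± 0.155, limma adjusted p = 0.0241). In the D53 line 2 of 8 differed, where 11.3% of all genes did. They were Slc39a8 (log2 1.09 ± 0.188, limma adjusted p = 0.000699) and Slc39a4 (log2 -1.46 ± 0.393, limma adjusted p = 0.0177). The sign says that the cystic difference was less negative (positive values) or less positive (negative values) in the edited line. For Slc30a2 the value in the D53 line was 0.60 ± 0.255 (limma adjusted p = 0.134). Both interaction terms subtract the same difference between the unedited RC/- and RC/+ mice, so they are not independent of each other.

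In the control mice, 0 of 10 genes were called in RC/+ D18 or in RC/+ D53 against RC/+ by limma, edgeR and DESeq2, and none had an unadjusted p below 0.05. Among all genes limma called 0.00443% in the D18 and 0% in the D53 comparison, with 1013 and 525 genes at an unadjusted p below 0.05. The log2 fold changes of the set ran from -0.25 to 0.71 in RC/+ D18 and from -0.19 to 0.27 in RC/+ D53, with the highest for Mt2 in RC/+ D18 (0.71 ± 0.519) and for Slc39a4 in RC/+ D53 (0.27 ± 0.311).

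The rest of the zinc transporter families gives the background to the set. Of the 17 other Slc30 and Slc39 genes, 16 were tested and 6 were called in RC/- against RC/+, 3 higher and 3 lower, a share close to the 37.6% called over all genes. Their median log2 fold change was -0.01, beside 0.141 for all genes. Slc39a5, an importer, fell from 117 ± 4.57 CPM in RC/+ (SD, n = 3) to 49.3 ± 13.8 in RC/- (SD, n = 5), by 1.30 log2 units (limma adjusted p = 3.55e-07). It stood at 107 ± 7.30 CPM in RC/- D18 and at 99.4 ± 14.5 in RC/- D53 (SD, n = 5 each). The importers Slc39a6 and Slc39a1 rose by 0.78 and 0.57 log2 units (limma adjusted p = 1.44e-06 and 7.83e-08), Slc39a1 from a mean of 109 to one of 162 CPM. Against RC/-, 6 of 16 were called in RC/- D18 (4 without libraries 20 to 22), where 41.2% of all genes were called, and 5 of 16 in RC/- D53, where 30.2% were. Of these genes 0 of 16 were called by limma, edgeR or DESeq2 in either line against the RC/+ mice of that line (1 and 3 at an unadjusted limma p below 0.05 in the D18 and D53 lines). Of the other metallothioneins, Mt3 did not pass (log2 -0.86, limma adjusted p = 0.0740, called under TMM scaling) and Mt4 was too low to be tested.

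Among 7 other genes reported as Mtf1 targets, 4 rose and 1 fell in RC/- against RC/+ (median log2 0.448, beside 0.141 for all genes). Over all genes 25.5% rose and 12.2% fell. The largest changes were in Pgf, a growth factor of the Vegf family (log2 1.19, limma adjusted p = 0.00230), Csrp1, a LIM domain protein (log2 0.98, limma adjusted p = 2.36e-06), and Selenow, a selenoprotein (log2 0.89, limma adjusted p = 2.64e-07). Against RC/-, 5 of these 7 were lower and 2 higher in RC/- D18 (3 and 2 without libraries 20 to 22), beside 26.9% lower and 14.3% higher of all genes. For RC/- D53 these counts were 4 lower and 1 higher, beside 18.9% and 11.3% of all genes.

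Of 8 genes of copper handling, 3 rose and 2 fell in RC/- against RC/+ (median log2 0.0097), beside 25.5% and 12.2% of all genes. Cp, the plasma ferroxidase ceruloplasmin, rose by 0.92 log2 units (limma adjusted p = 8.64e-06), and the copper pump Atp7b and the copper chaperone Ccs fell by 0.79 and 0.58 (limma adjusted p = 0.0194 and 6.95e-07). Without RC/- replicate 16 the list had 3 calls. Of 9 iron genes tested, 6 fell and 0 rose (median log2 -0.29), where 12.2% of all genes fell and 25.5% rose. The largest called changes were in the iron-responsive protein Aco1 (fell by 0.78, limma adjusted p = 5.83e-06) and the transferrin receptor Tfrc (fell by 0.52, limma adjusted p = 0.00709). The ferroxidase Heph followed (fell by 0.49, limma adjusted p = 0.0257). There were 4 calls without RC/- replicate 16. With TMM scaling 8 iron genes fell and 0 rose, where 3895 of the 22572 genes tested fell and 3842 rose.

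Of 11 genes induced by glucocorticoids, which also induce Mt1 and Mt2, 2 rose and 4 fell in RC/- against RC/+ (median log2 -0.39), where 25.5% of all genes rose and 12.2% fell. The kinase Sgk1 fell by 0.83 log2 units (limma adjusted p = 0.00991), the transcription factor Klf9 fell by 0.69 (limma adjusted p = 2.53e-05) and Ddit4, an mTOR inhibitor, rose by 0.63 (limma adjusted p = 7.09e-05). In RC/- D53 against RC/- D18, as values only, the median log2 value of the 11 was -0.262, beside 0.0287 for all genes. That of the iron genes was -0.143, and Mt3 was at -0.327. The medians of the other zinc transporters, other Mtf1 targets and copper genes were 0.0449, 0.0149 and -0.021. RC/+ D53 against RC/+ D18 played no part in the choice of genes. There the median of the glucocorticoid list was -0.218, beside 0.0184 for all genes, and 0 of 11 were called. Only Fkbp5 (log2 0.61) and Zbtb16 (log2 0.77) of that list were above 0 there. A link of these lists to Mt1 was not tested. In comparisons within an edited line and among control mice, 0 of the 52 genes tested from these lists were called by limma, edgeR or DESeq2. By limma, 3 of them had an unadjusted p below 0.05 within the D18 line, beside 2011 of the 22570 genes tested, and 12 within the D53 line, beside 3013.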

How the data were processed

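Whole kidneys of 24 mice were profiled by RNA-seq. The authors trimmed reads with Trim Galore 0.6.3, aligned them with STAR 2.5.3a to GRCm38 and deposited raw read counts per Ensembl gene, without normalization. The strand column kept is not given in the sources used here. No value column was left unused. Genes without a symbol held at most 0.0261% of a library. Members, gene lists and comparisons were chosen with earlier results of these data known.

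Counts were scaled to library totals, and log2 CPM (prior count 2, edgeR 4.0.16) was tested by limma-trend (limma 3.58.1, R 4.3.3) in 1 model of 6 groups over 24 libraries, for 22570 genes with mean log2 CPM of at least -3. Calls had a Benjamini-Hochberg adjusted p below 0.05 over all genes (two-sided). Alternatives were TMM scaling, edgeR quasi-likelihood, DESeq2 1.42.0, no filter, a prior count of 0.5, separate fits, covariates and leaving out each library. The limma test was also run on simulated counts in which some genes were changed in RC/- alone. These counts held no shift over all genes and no differences between lines, so the run does not cover those. The 39 pairs of libraries within groups differed beyond sampling noise (chi-square per degree of freedom 8.44 to 48.2), so none was a copy. Each library is 1 mouse, so p-values measure the spread between mice.

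Named genes were the 10 members, the up to 3 largest called changes of each list in RC/- against RC/+, other genes a result turns on, and the 5 genes most like Mt1 and Slc30a1. Exons came from GENCODE M21 (54409 of 54532 identifiers matched), and promoters from RefSeq (GRCm38.p6).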

Additional observations from a re-analysis of the deposited data

Results flagged for a closer look

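None of the 30 sets of values checked for a library far from the rest, 1 for each gene in each group of 5 mice, held such a library. The cystic difference of 4 genes differed between the D18 line and the unedited mice by the interaction term, with log2 values of 1.27 for Slc30a2, 1.14 for Slc39a8, -1.45 for Slc39a4 and -0.51 for Slc39a10. In the D53 line it differed for Slc39a8 (1.09) and Slc39a4 (-1.46). Slc39a4 rests on 19 to 115 reads per library. Its call in the D53 line was lost with libraries 20 to 27 as a covariate (log2 -1.94, limma adjusted p = 0.0519) and with the Gm28438 set (log2 -1.49, limma adjusted p = 0.0820). It was also lost without RC/+ D53 replicate 10 (log2 -1.33, limma adjusted p = 0.0553). The Slc39a4 call in the D18 line was lost with the Gm28438 set (log2 -1.49, limma adjusted p = 0.0678). The Slc39a4 calls lost under a covariate thus did not come with a smaller log2 value. Slc39a10 lost the call without libraries 20 to 22 (limma adjusted p = 0.156), with libraries 20 to 27 as a covariate (limma adjusted p = 0.195), with only the groups of the comparison (limma adjusted p = 0.0518) and without RC/+ replicate 5 or 6 or RC/+ D18 replicate 9 (limma adjusted p = 0.0634, 0.0765 and 0.0786).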

How the results depend on the processing

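No paired analysis was possible because every mouse has its own replicate number and no number is shared between groups. In RC/- against RC/+, 6 or 7 of 10 genes were called under the listed alternatives, at 5 to 7 when leaving out a library, and 4 with the Gm28438 set as a covariate, which was added after seeing the data. In RC/- D18 against RC/- the number was 3 or 4 of 8 (4 when leaving out a library). In RC/- D53 against RC/- it was 2 with libraries 20 to 27 as a covariate and 2 with the Gm28438 set (4 to 5 when leaving out a library, 4 or 5 otherwise). In RC/- D53 against RC/+ D53 it was 1 with sex as a covariate, with the Gm28438 set, with only these groups and in DESeq2, and 0 to 1 when leaving out a library (1 without RC/- D53 replicate 26). The gene was Slc30a2 each time, with log2 values of -0.67, -0.65, -0.65, -0.68 and -0.74. The interaction gave 3 or 4 genes in the D18 line (3 to 4 when leaving out a library) and, in the D53 line, 1 with libraries 20 to 27 as a covariate, 1 with the Gm28438 set and 1 to 2 when leaving out a library (1 without RC/+ D53 replicate 10). The cause of these changes was not tested.

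Log2 fold changes also turned direction. The Gm28438 set is estimated only within RC/-, where replicate 17 alone is low. It coincides with the edited lines, so its values for RC/+ D53 against RC/+ D18 cannot test that difference. With the Gm28438 set, RC/- against RC/+ gave -0.48 for Mt1 and -0.13 for Slc39a14, RC/- D18 against RC/- gave -0.16 for Mt2, RC/- D53 against RC/- gave -0.14 for Slc30a10 and 0.012 for Slc39a14, and RC/+ D53 against RC/+ D18 gave 0.33 for Mt1, 0.68 for Mt2 and 0.16 for Slc30a1 (0.0059 with sex as a covariate). In RC/- D18 against RC/-, Slc39a14 was 0.065 with TMM scaling, 0.0648 in edgeR and 0.0617 in DESeq2, and Mtf1 was 0.0014 in edgeR. Slc39a10 in RC/- D53 against RC/- was 0.17 with libraries 20 to 27 as a covariate. In RC/- D18 against RC/+ D18, Slc30a2 was -0.022 with TMM scaling, -0.22 with libraries 20 to 27 as a covariate, -0.22 without libraries 20 to 22, -0.0112 in edgeR and -0.0109 in DESeq2. Leaving out a library gave -0.16 to 0.31 for Mt2 and -0.13 to 5.7e-05 for Slc39a14 in RC/- D18 against RC/-, -0.12 to 0.17 for Slc30a2 in RC/- D18 against RC/+ D18, -0.22 to 0.0866 for Mt2 in RC/- D53 against RC/+ D53, and -0.0542 to 0.0225 for Slc30a1 in RC/+ D53 against RC/+ D18. Genes at few reads (Mt2, Slc39a4 and Slc30a10) are the least precise.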
